A study of Mus musculus with 18 samples.

Results

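The genes described here are 30 genes of the enteric nervous system, the network of nerve cells and glia in the wall of the gut. They were taken by symbol from a list of pan-neuronal, transmitter and glial genes, and all 30 were found among the 45777 genes of the count table. Their transcripts were read in colon RNA from germ-free male C57BL/6J mice aged 8 weeks. WT animals were wild type, LAO1KO animals were Lao1-/- and DKO animals were Lao1-/- Il4i1-/-. Both genes code for flavoenzymes of the L-amino acid oxidase family, which make a keto acid, ammonia and peroxide from an amino acid. Each genotype drank either sterile water or 2.5% dextran sulfate sodium (DSS), a polymer that injures the colon lining, for 24 hours, which gave 6 groups of 3 libraries called A, B and C. All 6 groups were without microbes, and the labels name no line, exon or cell type for either deletion.

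The enteric nervous system lies in a submucosal layer and in a myenteric layer between the muscle coats. Excitatory motor neurons release acetylcholine and tachykinins, which contract smooth muscle, and inhibitory motor neurons release nitric oxide and vasoactive intestinal peptide, which relax it. Enteric glia surround the neurons and carry S100b, Sox10 and, in part, Gfap. Ret, the receptor of the ligand Gdnf, is needed for neural crest cells to colonise the gut. The RNA came from colon tissue as a whole, so neurons and glia were a small part of each sample, and a few of the 30 genes also have a place in other cells, such as secretory vesicle genes in enteroendocrine cells.

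The promoters of Tubb3, Scg2 and Cartpt are shown because they hold the letters of sites, or parts of sites, known to bind regulators of neuronal genes. The windows run from 250 bases before to 50 bases after the start and come from RefSeq (GRCm38.p6), which matched 20 of the 30 members by symbol. Sox10, Stmn2, Ret, Penk, Gap43, Grp, Nefl, Nefm, Snap25 and Calb2 were not matched. The letters searched on both strands were TCAGCACC and GGACAG, which are the left and right parts of the repressor element RE1 bound by REST, a repressor of neuronal genes in other cells, and TGACGTCA, the cyclic AMP response element bound by CREB. The 3 motifs share no overlap in these windows, and capitals mark each match. Each line gives the strand of the gene, 5′ to 3′.
Tubb3, chr8:123411303-123411602, plus strand: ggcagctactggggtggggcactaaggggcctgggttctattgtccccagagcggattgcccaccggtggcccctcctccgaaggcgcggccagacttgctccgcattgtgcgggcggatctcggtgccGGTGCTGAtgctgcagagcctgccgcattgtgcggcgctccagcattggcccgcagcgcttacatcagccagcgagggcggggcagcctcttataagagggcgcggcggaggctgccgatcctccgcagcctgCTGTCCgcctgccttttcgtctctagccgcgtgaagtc
Scg2, chr1:79439977-79440276, minus strand: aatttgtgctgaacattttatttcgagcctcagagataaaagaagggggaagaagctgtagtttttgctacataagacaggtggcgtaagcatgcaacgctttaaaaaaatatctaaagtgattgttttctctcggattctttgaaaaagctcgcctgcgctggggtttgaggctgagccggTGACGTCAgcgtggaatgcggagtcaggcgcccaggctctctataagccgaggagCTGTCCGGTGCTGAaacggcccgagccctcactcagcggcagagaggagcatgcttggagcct
Cartpt, chr13:99900634-99900933, minus strand: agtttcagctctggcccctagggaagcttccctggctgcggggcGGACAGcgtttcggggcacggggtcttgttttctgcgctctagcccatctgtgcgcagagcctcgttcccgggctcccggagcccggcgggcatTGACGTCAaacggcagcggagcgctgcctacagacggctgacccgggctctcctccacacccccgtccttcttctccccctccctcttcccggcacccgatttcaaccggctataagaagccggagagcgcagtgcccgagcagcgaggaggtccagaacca
TCAGCACC was in the promoters of Tubb3 and Scg2 among the 20 members, and in 1.85% of the 27025 genes with a window of this length. Positions before the start are negative, and the start base is the first positive one, with no 0. In Tubb3 the first base of the match lay at -121, and a GGACAG match began at 13. In Scg2 the TCAGCACC match began at -7 and the GGACAG match at -13, side by side. Both RE1 parts, in any order and at any distance, were found in 0.459% of all genes. In Scg2 they stood in the order of RE1, whereas in Tubb3 they lay far apart and in the reverse order. The distance between the parts was not compared with that in RE1, so the order alone does not make a full RE1. GGACAG alone was in 24.7% of genes and in 6 members, which were Tubb3, Syt1, Scg2, Vip, Cartpt and Nmu. TGACGTCA was in 2.03% of genes and in Scg2, at -68, and Cartpt, at -112. These matches describe letters and not bound sites.

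The libraries held 26003174 to 36553193 counts each. The check of the deleted genes was weak, because Lao1 had 69 counts over all 18 libraries, with 10 or fewer in any library. It had 2 and 4 counts in the WT groups and 10 to 21 in each knockout group, too few to check the labels. Il4i1 had 0 counts in every DKO library and 168 in all. This check was weak too, because some libraries of WT water, WT DSS and LAO1KO DSS also had 0 counts. A second entry, Il4i1b, had 337 counts in all, with 0 in DKO water and 12 in DKO DSS, all in a single library. The WT DSS group held 10 counts of Il4i1 itself in total. Mitochondrial mRNAs took 6.89% to 20.7% of the counts in water libraries and 14.3% to 44.9% in DSS libraries, with the highest share in WT DSS library C. The clock gene Dbp ranged from 6.02 to 35.5 CPM (counts per 1000000 counts of a library) in water and from 49.2 to 131 CPM in DSS, and its partner Arntl ran the other way, from 26 to 51.9 CPM in water and from 8.64 to 23.0 CPM in DSS. The labels give no hour of collection, so the clock phase and DSS cannot be told apart in any comparison below. No batch is given by the labels. All 11 epithelial and all 12 smooth muscle markers, genes of the colon wall, had counts in every library.

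The members spanned a wide range of levels. The library totals behind CPM values were adjusted by trimmed-mean (TMM) factors, and levels of different genes are compared per kilobase of exon. Gal, which encodes the peptide galanin, was highest at 78.8 CPM per kb averaged over all libraries, and Penk, the enkephalin precursor, followed at 28.5 CPM per kb. Uchl1, a ubiquitin hydrolase abundant in neurons (27.2 CPM per kb), Calb2, the calcium-binding protein calretinin of many excitatory neurons (22.3 CPM per kb), Scg2, a granin of dense-core vesicles (19.8 CPM per kb), and Prph, the intermediate filament peripherin (18.0 CPM per kb), came next. Nefm, a neurofilament subunit, had the lowest level among the 29 members tested, at 0.497 CPM per kb. Npy, which encodes neuropeptide Y, was covered by 29 counts over the whole series, 0 to 5 per library, fell below the count filter and was not tested.

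After 24 hours of DSS the neuronal and glial genes stood higher in the colon RNA. Averaged over the 3 genotypes, 18 of the 29 tested members rose in DSS against water and none fell, at an adjusted p under 0.05 by edgeR. Over all 18848 genes tested, 6.72% rose and 9.18% fell. All 29 members had a positive log2 fold change, from 0.22 to 0.91, with a median of 0.70 (1.63-fold) beside 0.03 for all genes. In bulk RNA, a larger share of neurons or glia and more RNA in each such cell cannot be told apart. Without LAO1KO DSS library B, or without DKO DSS library B, 8 members were called in place of 18. The count of all genes that rose was then 650 and 572, in place of 1266, so it fell with that of the members. Tubb3, Prph, Stmn2, Stmn3, Uchl1, Syt1, Nmu and Calb2 kept the call in all 26 alternative analyses, which are the 18 that leave out a library and 8 other settings.

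**Figure D1:**
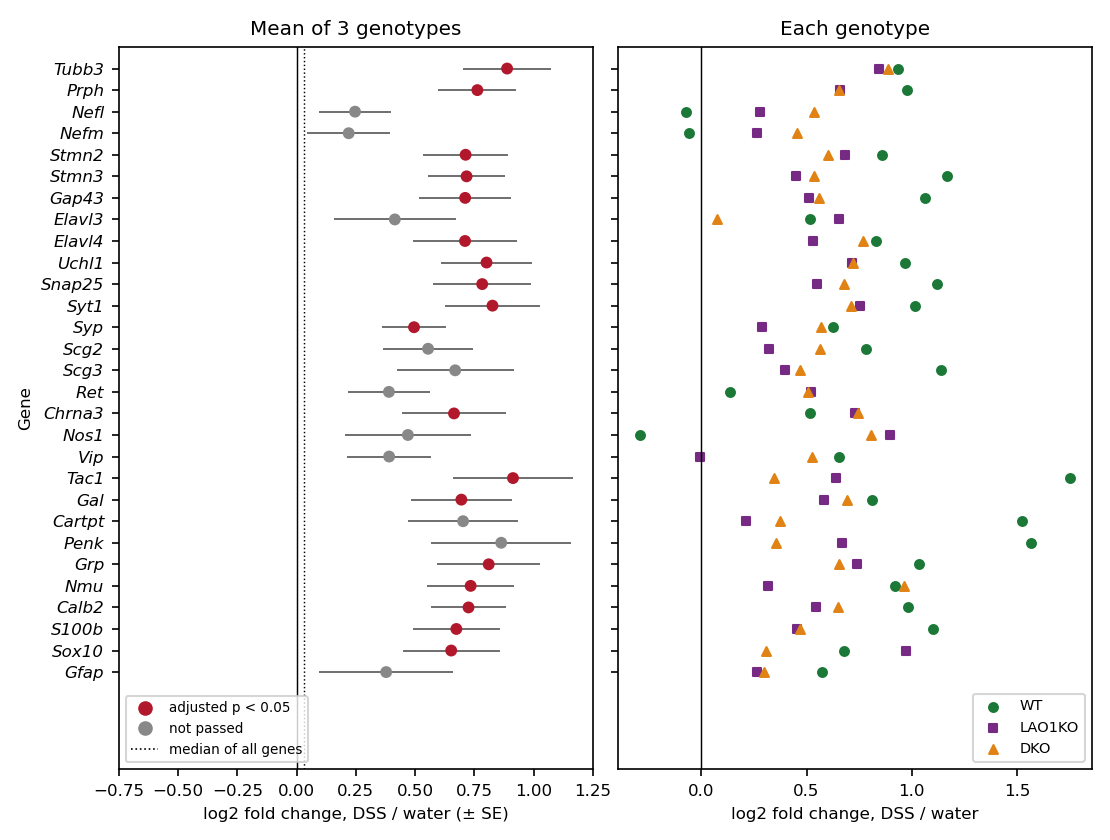
Log2 fold change of DSS against water for the 29 tested members, as the mean of 3 genotypes with its standard error (left; red, adjusted p under 0.05) and within each genotype (right). All 29 points on the left lie above 0, from 0.22 for Nefm to 0.91 for Tac1, while Nos1, Nefl and Nefm lie below 0 in WT.

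Among the 7 genes of the neuronal cytoskeleton and of axon growth, Tubb3, Prph, Stmn2, Stmn3 and Gap43 rose. Tubb3 encodes neuronal beta-tubulin and is the first of the promoters shown above. In the water libraries A to C it stood at 15.9, 12.6 and 15.4 CPM in WT, 11.4, 18.1 and 18.4 in LAO1KO and 10.1, 25.4 and 20.3 in DKO. In the DSS libraries it stood at 24.6, 29.0 and 30.4 CPM in WT, 27.4, 39.2 and 19.2 in LAO1KO and 22.5, 43.9 and 36.9 in DKO. The DSS libraries lay above all water libraries in WT and in LAO1KO, but DKO DSS A overlapped its water group. The averaged log2 fold change was 0.89 ± 0.18 (SE, adjusted p = 0.00532).

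Prph marks peripheral neurons. Its water libraries held 23.1, 16.7 and 25.1 CPM in WT, 21.4, 28.5 and 31.9 in LAO1KO and 20.5, 35.7 and 38.4 in DKO. Its DSS libraries held 37.8, 39.8 and 50.3 CPM in WT, 38.6, 61.1 and 29.3 in LAO1KO and 35.9, 63.4 and 49.4 in DKO. The DSS values did not overlap the water values in WT, whereas LAO1KO DSS C lay below LAO1KO water C. The difference was 0.76 ± 0.16 (SE, adjusted p = 0.00667) on the log2 scale.

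Stmn2 and Stmn3 encode stathmins, which bind tubulin in growing axons, and as members of 1 gene family they could share reads. Stmn2 was measured in water at 21.4, 15.9 and 28.5 CPM in WT, 18.3, 31.9 and 28.6 in LAO1KO and 19.6, 39.1 and 39.6 in DKO. Under DSS it was at 35.4, 38.0 and 46.1 CPM in WT, 38.0, 54.6 and 33.9 in LAO1KO and 31.5, 65.1 and 52.4 in DKO. LAO1KO and WT showed no overlap between water and DSS, and in DKO library A of DSS fell below water libraries B and C. Its log2 fold change was 0.71 ± 0.18 (SE, adjusted p = 0.016). Stmn3 was measured in water at 9.02, 7.62 and 10.5 CPM in WT, 11.5, 14.0 and 16.4 in LAO1KO and 9.63, 16 and 17.9 in DKO. Under DSS it was at 17.5, 17.2 and 26.4 CPM in WT, 16.6, 26 and 14.7 in LAO1KO and 14.4, 29.0 and 19.6 in DKO. The WT groups were apart, and the other 2 genotypes each had a DSS library inside the water range. Its log2 fold change was 0.72 ± 0.16 (SE, adjusted p = 0.00849).

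Gap43, a protein of growth cones, gave in water 6.60, 4.88 and 6.87 CPM in WT, 6.02, 9.61 and 9.55 in LAO1KO and 5.79, 11.8 and 14.0 in DKO. After DSS it gave 11.5, 11.3 and 15.7 CPM in WT, 10.5, 16.6 and 8.79 in LAO1KO and 9.36, 21.8 and 15.3 in DKO. The WT groups did not overlap, while library C of LAO1KO and library A of DKO under DSS were below the highest water libraries of their genotypes. On the log2 scale DSS minus water came to 0.71 ± 0.20 (SE, adjusted p = 0.0222). The 2 neurofilament genes, which encode subunits of the axonal skeleton, did not pass. Nefl ranged from 4.08 to 10.0 CPM in water and from 5.26 to 12.4 CPM in DSS, with a log2 fold change of 0.25 ± 0.15 (SE, adjusted p = 0.281). Nefm ranged from 1.58 to 3.70 CPM and from 2.29 to 4.29 CPM, with 0.22 ± 0.17 (SE, adjusted p = 0.406). Nefl (chr14:68083863-68089095, plus strand) and Nefm (chr14:68082590-68124846, minus strand) share 1108 exonic bases on opposite strands in GENCODE M21, 32.8% of the exonic length of Nefl and 19.2% of that of Nefm. Whether the counting used strand is not given in the sources used here, so the values of this pair are uncertain.

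Of the RNA-binding proteins Elavl3 and Elavl4 and the ubiquitin hydrolase Uchl1, the last 2 rose. Uchl1 held in water 29.0, 22.7 and 29.0 CPM in WT, 29.8, 35.6 and 31.7 in LAO1KO and 19.0, 54.8 and 41.0 in DKO. In DSS animals it held 47.6, 50.8 and 59.8 CPM in WT, 50.6, 67.5 and 41.4 in LAO1KO and 34.7, 84.8 and 70.0 in DKO. Water and DSS did not overlap in WT or LAO1KO, and in DKO the DSS library A lay between water libraries. DSS minus water was 0.80 ± 0.19 (SE, adjusted p = 0.0119) on the log2 scale.

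Elavl4, which stabilises neuronal mRNAs and is the target of a common antibody for enteric neurons, gave in water 5.54, 5.67 and 10.6 CPM in WT, 4.40, 9.45 and 8.31 in LAO1KO and 4.38, 10.3 and 13.9 in DKO. With DSS it gave 12.8, 12.2 and 13.9 CPM in WT, 10.3, 12.7 and 8.95 in LAO1KO and 10.0, 20.2 and 18.6 in DKO. WT was without overlap, and the other genotypes overlapped. Averaged over genotypes the log2 difference was 0.71 ± 0.22 (SE, adjusted p = 0.0373), and 13 of 26 alternatives kept the call. Its paralog Elavl3 ranged from 1.19 to 6.89 CPM in water and from 2.82 to 7.27 CPM in DSS, with a log2 fold change of 0.41 ± 0.26 (SE, adjusted p = 0.282). Elavl3 and Elavl4 are similar in sequence, and their reads could have been split between them.

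All 5 genes of synaptic and secretory vesicles were higher in DSS on average, and Snap25, Syt1 and Syp passed. Snap25 is a membrane part of the machinery that fuses vesicles. It was in water at 15.6, 13.1 and 20.9 CPM in WT, 14.6, 27.8 and 21.9 in LAO1KO and 14.0, 32.6 and 34.3 in DKO. After DSS it was at 28.8, 35.8 and 43.3 CPM in WT, 27.4, 42.7 and 24.0 in LAO1KO and 27.0, 59.1 and 43.6 in DKO. WT was without overlap, and in LAO1KO and DKO the lowest DSS library lay inside the water range. Its log2 difference over the 3 genotypes was 0.78 ± 0.21 (SE, adjusted p = 0.0194).

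Syt1 is the calcium sensor of transmitter release. Water libraries had 10.9, 8.57 and 11.8 CPM in WT, 5.90, 13.2 and 10.7 in LAO1KO and 7.09, 15.5 and 20.0 in DKO. DSS libraries had 19.5, 22.1 and 21.6 CPM in WT, 14.7, 22.8 and 12.9 in LAO1KO and 15.8, 29.0 and 24.9 in DKO. LAO1KO DSS C came just under LAO1KO water B, and DKO DSS A was below DKO water C. The averaged change was 0.83 ± 0.20 (SE, adjusted p = 0.012) on the log2 scale.

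Syp encodes synaptophysin, a protein of synaptic vesicle membranes. Water libraries gave 13.5, 11.8 and 12.8 CPM in WT, 11.9, 18.2 and 20.5 in LAO1KO and 12.3, 17.9 and 17.3 in DKO. DSS libraries gave 17.7, 20.2 and 20.8 CPM in WT, 19.6, 27.9 and 14.3 in LAO1KO and 19.1, 28.9 and 22.5 in DKO. Syp was the 1 member whose DKO groups did not overlap, and its WT groups did not overlap either. Its log2 fold change of 0.50 ± 0.13 (SE, adjusted p = 0.0206) was the smallest among those called.

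The granins Scg2 and Scg3, which help to form dense-core vesicles, did not pass. Scg2, whose promoter holds all 3 motifs shown above, ranged from 23.8 to 56.5 CPM in water and from 40.4 to 85.2 CPM in DSS, with a log2 fold change of 0.55 ± 0.19 (SE, adjusted p = 0.0596). Scg3 ranged from 7.20 to 29.6 CPM and from 17.2 to 43.2 CPM, with 0.67 ± 0.25 (SE, adjusted p = 0.0775).

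Of the 2 receptors, Chrna3 rose and Ret did not pass. Chrna3, a subunit of the nicotinic receptor through which enteric neurons receive acetylcholine, was in water at 9.11, 7.65 and 11.1 CPM in WT, 4.88, 12.1 and 7.45 in LAO1KO and 5.34, 15 and 13.9 in DKO. Under DSS it was at 11.7, 15.6 and 12.6 CPM in WT, 12.7, 17.3 and 10.5 in LAO1KO and 11.6, 26.6 and 19.4 in DKO. The WT groups were apart, and those of LAO1KO and DKO overlapped. The log2 fold change was 0.66 ± 0.22 (SE, adjusted p = 0.0497), near the threshold, and 9 of 26 alternatives kept the call. Ret ranged from 9.86 to 26.1 CPM in water and from 17.7 to 34.7 CPM in DSS, with a log2 fold change of 0.39 ± 0.17 (SE, adjusted p = 0.131).

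Transmitter enzymes, peptides and subtype markers gave 5 called genes among 9 tested, which were Tac1, Gal, Grp, Nmu and Calb2. Tac1 encodes substance P and neurokinin A, the tachykinins of excitatory neurons. It stood in water at 16.5, 18.6 and 18.7 CPM in WT, 17.4, 37.5 and 30.5 in LAO1KO and 17.0, 46.4 and 28.6 in DKO. In DSS animals it stood at 40.2, 45.7 and 95.9 CPM in WT, 37, 65.4 and 30.8 in LAO1KO and 24.1, 54.7 and 38.2 in DKO. WT DSS C, at 95.9 CPM, was the highest of all 18 libraries, and in LAO1KO and DKO the groups overlapped. The averaged log2 fold change of 0.91 ± 0.25 (SE, adjusted p = 0.026) was the largest among the members, and 21 of 26 alternatives kept the call.

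Calb2 was in water at 24.5, 17.8 and 27.8 CPM in WT, 22.3, 33.0 and 35.1 in LAO1KO and 25.0, 43.6 and 35.8 in DKO. With DSS it was at 46.5, 39.2 and 52.8 CPM in WT, 41.9, 59.8 and 30.2 in LAO1KO and 39.4, 70.5 and 53.9 in DKO. The WT groups did not overlap, and the other genotypes had 1 DSS library each in the water range. On the log2 scale DSS minus water came to 0.73 ± 0.16 (SE, adjusted p = 0.00713).

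Gal had in water 35.1, 17.9 and 49.4 CPM in WT, 37, 44.2 and 65.3 in LAO1KO and 45, 66.1 and 68.3 in DKO. After DSS it had 56.5, 48.3 and 75.5 CPM in WT, 67.5, 89.3 and 62.4 in LAO1KO and 54.4, 143 and 92.5 in DKO. WT DSS B lay just below WT water C, so no genotype was free of overlap. DSS minus water was 0.70 ± 0.21 (SE, adjusted p = 0.0381) on the log2 scale, and 12 of 26 alternatives kept the call.

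Grp encodes gastrin-releasing peptide, which excites enteric neurons and muscle. Its water values were 5.74, 3.92 and 6.15 CPM in WT, 3.86, 7.15 and 5.71 in LAO1KO and 3.87, 11.2 and 9.87 in DKO. Its DSS values were 9.33, 12.0 and 11.1 CPM in WT, 7.75, 11.4 and 8.83 in LAO1KO and 6.45, 17.6 and 15.3 in DKO. WT and LAO1KO showed no overlap, and DKO DSS A lay inside the water range. Averaged over genotypes the log2 difference was 0.81 ± 0.22 (SE, adjusted p = 0.0194).

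Nmu encodes neuromedin U, a peptide that acts on smooth muscle and on type 2 innate lymphoid cells. Its level in water was 3.51, 2.90 and 3.35 CPM in WT, 3.89, 2.35 and 3.08 in LAO1KO and 2.23, 3.11 and 5.28 in DKO. Its level in DSS was 5.64, 5.57 and 7.35 CPM in WT, 2.49, 5.03 and 4.13 in LAO1KO and 5.08, 8.95 and 6.65 in DKO. LAO1KO DSS A lay low at 2.49 CPM, and the WT groups were apart. Its log2 difference over the 3 genotypes was 0.73 ± 0.18 (SE, adjusted p = 0.0135).

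Cartpt, Penk, Vip and Nos1 did not pass on average. Cartpt, the precursor of the CART peptide and the last of the promoters shown above, was in water at 4.23, 5.61 and 6.71 CPM in WT, 7.81, 18.7 and 15.1 in LAO1KO and 7.98, 17.7 and 12.0 in DKO. In DSS animals it was at 11.9, 10.5 and 25.6 CPM in WT, 15.2, 22.3 and 10.6 in LAO1KO and 11.4, 18.8 and 18.7 in DKO. In WT the groups were apart, while in LAO1KO and DKO the ranges overlapped over most of their length. Its averaged log2 fold change was 0.70 ± 0.23 (SE, adjusted p = 0.0508).

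Penk ranged from 16.4 to 63.2 CPM in water and from 30.6 to 111 CPM in DSS, with 0.86 ± 0.30 (SE, adjusted p = 0.0621) on the log2 scale. Vip, the inhibitory peptide, ranged from 16.5 to 33.8 CPM and from 19.6 to 51.2 CPM, with 0.39 ± 0.18 (SE, adjusted p = 0.143). Nos1, the neuronal nitric oxide synthase, had an averaged log2 fold change of 0.47 ± 0.27 (SE, adjusted p = 0.236), which joined genotypes of opposite sign.

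Nos1 was in water at 31.1, 33.1 and 27.0 CPM in WT, 7.66, 31.2 and 19.7 in LAO1KO and 11.0, 35.7 and 33.0 in DKO. With DSS it was at 24.0, 28.1 and 22.2 CPM in WT, 33.9, 50.7 and 24.5 in LAO1KO and 32.2, 58.4 and 48.7 in DKO. WT DSS libraries lay at the low end of or under the WT water range, and LAO1KO water A was lowest of all at 7.66 CPM. By genotype, the Nos1 difference on the log2 scale was -0.29 ± 0.46 (SE, adjusted p = 0.713) with wild-type alleles, 0.90 ± 0.46 (SE, adjusted p = 0.366) in Lao1-/- mice and 0.81 ± 0.46 (SE, adjusted p = 0.602) with both genes deleted. The ratio of Tac1 CPM to Nos1 CPM was 0.594 ± 0.0852 (SD, n = 3) in WT water and 2.54 ± 1.55 in WT DSS. That ratio was 1.67 ± 0.546 in LAO1KO water and 1.21 ± 0.106 in LAO1KO DSS, and 1.24 ± 0.347 in DKO water and 0.823 ± 0.0999 in DKO DSS. The 3 WT water ratios (0.530 to 0.691) lay below the WT DSS ratios (1.62 to 4.33), and the pair was chosen after its values were seen. The separation in WT was not particular to Tac1. Vip to Nos1 ran from 0.548 to 0.949 in water and from 0.992 to 2.13 in DSS. Calb2 to Nos1 ran from 0.539 to 1.03 and from 1.39 to 2.38. The ratio of S100b to Tubb3 overlapped, and the share over other gene pairs was not computed.

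**Figure D2:**
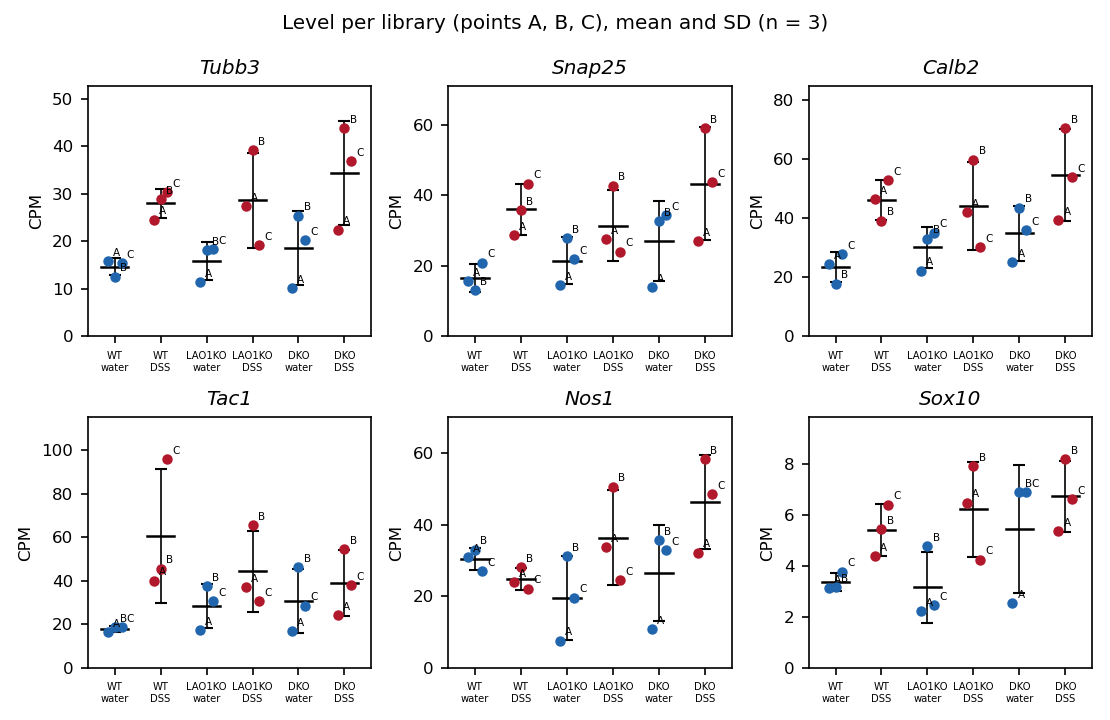
CPM of 6 members in all 18 libraries by group, with blue for water, red for DSS, letters for the libraries, a horizontal line at each group mean and vertical bars of 1 SD. The water and DSS libraries of WT are apart for Tubb3 and Tac1, while Nos1 lies between 22.2 and 28.1 CPM in WT DSS and between 27.0 and 33.1 CPM in WT water.

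Of the 3 glial genes, S100b and Sox10 rose and Gfap did not pass. S100b, a calcium-binding protein of enteric glia, was in water at 2.65, 3.0 and 4.42 CPM in WT, 3.07, 5.91 and 4.25 in LAO1KO and 3.87, 5.74 and 7.36 in DKO. After DSS it was at 5.57, 5.83 and 10.3 CPM in WT, 5.96, 7.45 and 4.70 in LAO1KO and 5.81, 8.49 and 9.17 in DKO. The WT groups were apart, and the other genotypes overlapped. The averaged change was 0.67 ± 0.18 (SE, adjusted p = 0.021) on the log2 scale.

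Sox10, a transcription factor of neural crest and glia, was in water at 3.15, 3.19 and 3.78 CPM in WT, 2.24, 4.78 and 2.47 in LAO1KO and 2.53, 6.90 and 6.89 in DKO. In DSS animals it was at 4.38, 5.46 and 6.41 CPM in WT, 6.49, 7.93 and 4.25 in LAO1KO and 5.38, 8.19 and 6.62 in DKO. WT was without overlap, and LAO1KO DSS C lay under LAO1KO water B. The log2 fold change was 0.65 ± 0.20 (SE, adjusted p = 0.0384), and 14 of 26 alternatives kept the call. Gfap, the glial filament protein, ranged from 3.55 to 14.5 CPM in water and from 3.76 to 15.7 CPM in DSS, with 0.38 ± 0.28 (SE, adjusted p = 0.377).

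In WT, 6 of the 29 members rose, against 6.29% of all genes that rose and 6.59% that fell. Tac1 had the largest change, 1.75 ± 0.45 (SE, adjusted p = 0.0216) on the log2 scale or 3.37-fold. Among the called members Cartpt followed with 1.52 ± 0.41 (SE, adjusted p = 0.0259), Stmn3 with 1.17 ± 0.29 (SE, adjusted p = 0.0157) and S100b with 1.10 ± 0.32 (SE, adjusted p = 0.0333). Calb2 changed by 0.98 ± 0.28 (SE, adjusted p = 0.0297) and Prph by 0.98 ± 0.29 (SE, adjusted p = 0.0349). Tubb3 and Snap25 had log2 fold changes of 0.93 ± 0.32 (SE, adjusted p = 0.0639) and 1.12 ± 0.36 (SE, adjusted p = 0.0519) and did not pass, nor did Penk, at 1.57 ± 0.52 (SE, adjusted p = 0.0627). The median over the members was 0.92, 26 of them were positive, and Nos1, Nefl and Nefm were negative. All 3 DSS libraries lay above all 3 water libraries for 22 of 29 members, beside 18% of all genes.

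The WT calls changed with single libraries, and so did those over all genes. Without WT water A, WT water B or WT DSS C, 0 members were called in WT, 4 were called without WT DSS A, and none of the 6 kept its call in all 14 alternatives. Over all genes, 2428 were called in WT with every library, 1283 without WT water A, 777 without WT water B, 981 without WT DSS C and 1602 without WT DSS A. WT DSS C held the largest mitochondrial share (44.9%) of all libraries and had the highest Tac1, Penk, Vip and Cartpt among the WT DSS libraries. In WT the 12 smooth muscle markers had a median log2 fold change of -0.51 with 0 called, and of the 8 fibroblast markers 4 fell. The part of the mitochondrial share in these differences was tested only by leaving those mRNAs out, after which 6 members were called in WT and 17 on average.

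In LAO1KO and DKO no member passed in either direction by edgeR. In LAO1KO 0.00531% of all genes rose and 0.191% fell, and in DKO 0.0159% rose and 0% fell, so few genes of any kind were called there. At an unadjusted p under 0.05, 6 members were higher in LAO1KO, beside 6.65% of all genes, and 6 in DKO, beside 4.14%. The voom fit called Tubb3, Uchl1 and Sox10 higher in LAO1KO, where it called 12.6% of all genes higher. In DKO it called Tubb3 higher, beside 0.515% of all genes. DESeq2 called 0 members in both genotypes, and 674 and 174 genes in either direction. In LAO1KO 28 of 29 members had a positive log2 fold change, with a median of 0.55, and in DKO all 29 had, with a median of 0.56. Under the 8 other settings the median over all genes was -0.002 to 0.084 in LAO1KO and 0 to 0.060 in DKO. The members moved together from library to library, so these signs do not count independent genes. The DSS libraries lay above the water libraries for 5 members in LAO1KO (Tubb3, Nefl, Stmn2, Uchl1 and Grp), beside 9.3% of all genes. In DKO 1 member did so (Syp), beside 8.39% of genes, and no member did so in all 3 genotypes, beside 0.525% of genes.

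The DSS difference was not shown to depend on genotype for any member. The interaction of DSS with LAO1KO was called for 0 of 29 members and 0% of all genes, and that with DKO for 0 members and 0.0584% of genes. Cartpt had the lowest p for LAO1KO, with a difference in log2 fold change of -1.31 ± 0.57 (unadjusted p = 0.0352, adjusted p = 0.276). Tac1 had the lowest p for DKO, with -1.41 ± 0.62 (unadjusted p = 0.038, adjusted p = 0.294). In each interaction 1 member had an unadjusted p under 0.05, beside 15.9% of all genes for LAO1KO and 15.4% for DKO. The voom fit called Cartpt in the interaction with LAO1KO (adjusted p = 0.0421), where it called 12.5% of all genes. It called 0 members and 214 genes in that with DKO, and DESeq2 called 0 members in both, with 441 and 492 genes. The log2 fold change was largest in WT for 21 of 29 members and positive in all 3 genotypes for 25. The shares of all genes were not computed for these counts, and the members moved together from library to library. A p that misses the threshold does not show equal responses.

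Genotype alone gave no called member by edgeR. Averaged over treatments, 0 members differed between LAO1KO and WT (0.133% of all genes did), between DKO and WT (0.562%) or between DKO and LAO1KO (0.239%). In that order 1, 4 and 1 members had an unadjusted p under 0.05, beside 4.8%, 10.8% and 7.21% of all genes. Under water 0 members differed between LAO1KO and WT (0.0531% of genes) and between DKO and WT (0.621%), and under DSS 0 differed in either (0.0849% and 0.255%). In the same order 2, 6, 1 and 0 members had an unadjusted p under 0.05, beside 14.3%, 17.3%, 6.02% and 9.69% of all genes. For DKO against WT the median log2 fold change was 0.58 in water, with 27 of 29 members positive. Over all genes the median was 0.01, with 9634 of 18848 positive. The members moved together from library to library, so the 27 signs do not count independent genes. DKO water A had a mean member level of 3.23 on the log2 scale, below all WT water libraries (3.29 to 3.73). DKO water B and C stood at 4.29 and 4.24. The 6 members with an unadjusted p under 0.05 for DKO against WT in water were all positive. They were Cartpt (1.19 ± 0.41, adjusted p = 0.165), Stmn3, S100b, Gap43, Scg3 and Gal. For LAO1KO against WT in water, Cartpt gave 1.33 ± 0.41 (adjusted p = 0.208). That difference was called by DESeq2 (adjusted p = 0.0455), which called 1.92% of the genes it gave an adjusted p, and by voom (adjusted p = 0.0177), which called 4.96% of all genes. The voom fit also called Nmu higher in DKO than in LAO1KO on average (adjusted p = 0.0356), beside 1.88% of all genes called. Under DSS it called Nmu lower in LAO1KO than in WT (adjusted p = 0.0207), beside 5.24% of all genes. Neither tool called another member. WT water is shared by these comparisons and by the DSS difference in WT, and Cartpt was low there, at 4.23 to 6.71 CPM.

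**Figure D3:**
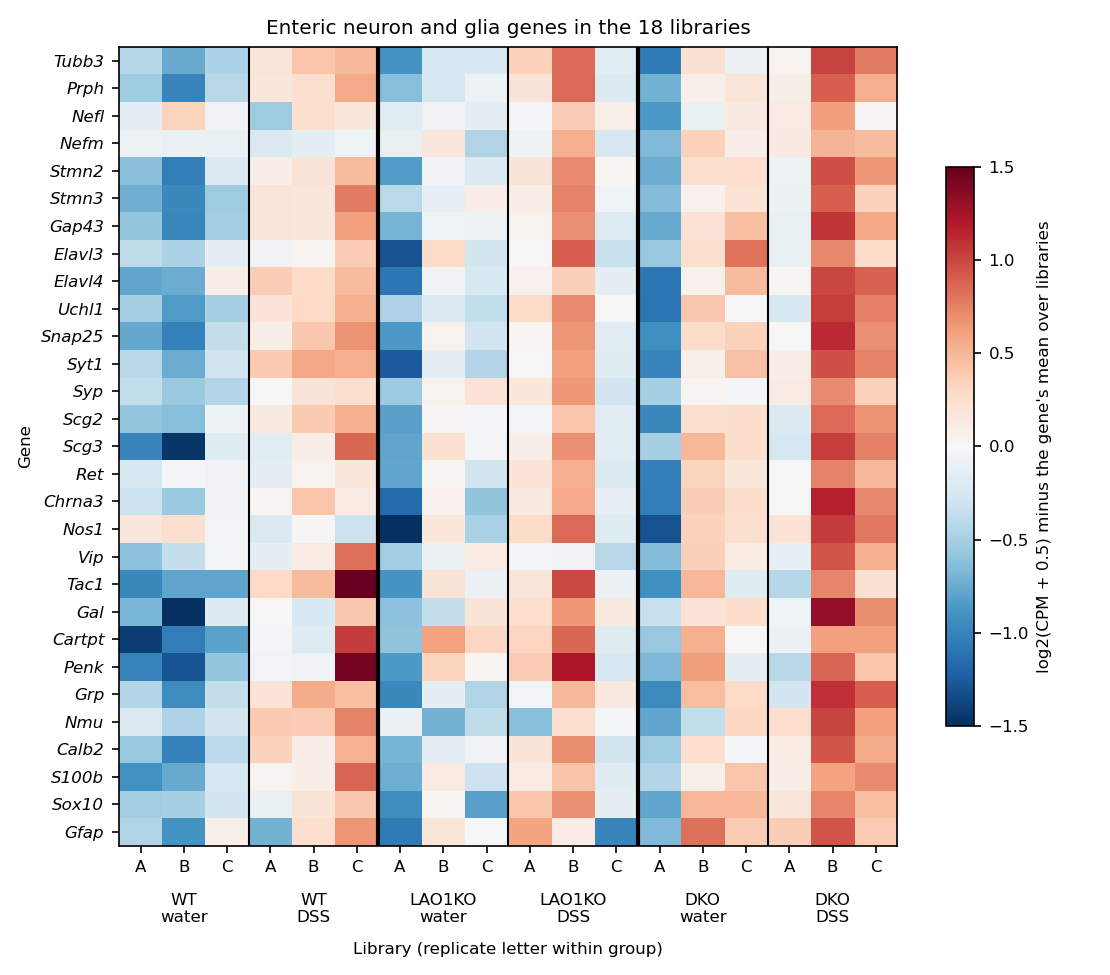
Each member's log2(CPM + 0.5) in the 18 libraries, shown as the difference from its own mean over them. The columns differ as wholes within a group: DKO water A is lowest of its group in all 29 tested members, and DKO DSS B is highest of its group in 28.

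The members moved together from library to library within groups as well as between treatments. DKO water A was lowest of its group for 29 of 29 members, where it was lowest for 30.7% of all genes. DKO DSS B was highest for 28 and DKO DSS A lowest for 28. LAO1KO DSS B was highest for 27 and LAO1KO DSS C lowest for 26, and LAO1KO water A was lowest for 27. WT DSS C was highest for 24, and WT water C for 21. Over all genes tested, any 1 library was highest or lowest of its group for 21.8% to 42.5%.

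The mean log2(CPM + 0.5) over the 29 members gives a level for each library. It was 3.49 ± 0.22 (SD, n = 3) in WT water, 3.69 ± 0.40 in LAO1KO water and 3.92 ± 0.60 in DKO water. The means under DSS were 4.28 ± 0.27 for WT, 4.21 ± 0.40 for LAO1KO and 4.50 ± 0.47 for DKO. The WT libraries did not overlap between water (3.29 to 3.73) and DSS (4.05 to 4.57). DKO overlapped, from 3.23 to 4.29 in water and from 3.99 to 4.92 in DSS, as did LAO1KO, from 3.24 to 4.01 and from 3.85 to 4.64. In each knockout the range of libraries within a group was wider than the difference between its water and DSS means.

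Markers of other cell types varied with the members across libraries. The library with the lowest member level had the highest level of the 11 epithelial markers in 6 of 6 groups, and the library with the highest member level had the lowest epithelial level in 5 of 6. For example, in WT water the epithelial level was 9.73 in library B, which was lowest in the members at 3.29, and 9.03 in library C, which was highest at 3.73. In DSS the epithelial markers had a median log2 fold change of -0.27 with 2 of 11 lower and none higher, namely the keratin Krt20 (-0.80 ± 0.22 (SE), adjusted p = 0.0212) and the adhesion protein Cdh1 (-0.30 ± 0.09, adjusted p = 0.0404). Their summed CPM was 14633 to 22960 in WT water, 13754 to 24770 in LAO1KO water and 13314 to 16032 in DKO water. Under DSS it was 12071 to 16511 in WT, 11059 to 17046 in LAO1KO and 12454 to 18905 in DKO, and 0 of the 11 were at 0 in any library. The smooth muscle markers ran with the members less evenly, being lowest in 4 and highest in 2 of 6 groups at the library with the lowest member level. On average over genotypes their median log2 fold change was 0.02, with 0 of 12 called. The part of tissue composition in the DSS difference of the members was not tested.

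**Figure D4:**
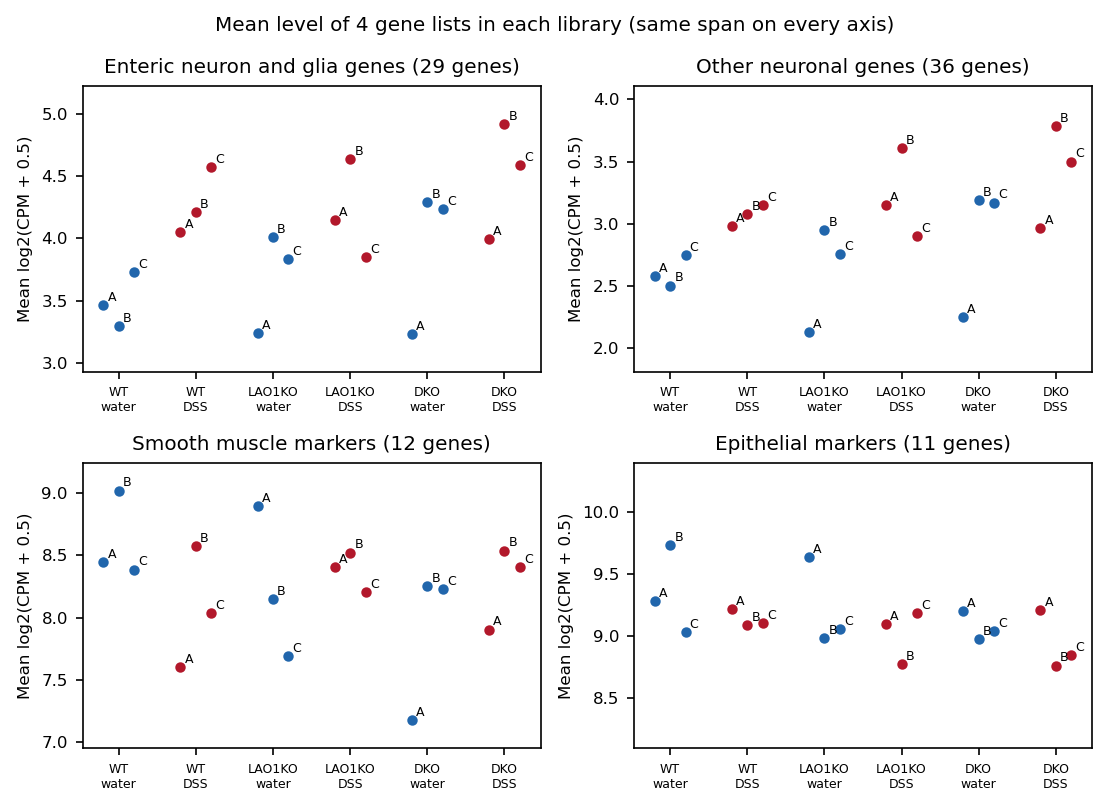
Mean log2(CPM + 0.5) of the members and of 3 other gene lists in each of the 18 libraries, by group, with blue for water and red for DSS. The members lie between 3.29 and 3.73 in WT water and between 4.05 and 4.57 in WT DSS, and within each of the 6 groups the library lowest in the members is highest in the epithelial markers.

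Lists of other neural genes were compared in the same way. Of 36 other neuronal genes tested, 18 rose and 0 fell in DSS on average, with a median log2 fold change of 0.64. The 3 with the smallest p were Scn3a, a voltage-gated sodium channel (0.99 ± 0.23 (SE), adjusted p = 0.00839), Gng3, a neuronal G protein subunit (0.76 ± 0.18, adjusted p = 0.00922), and Pcsk1n, a neuroendocrine protease inhibitor (0.74 ± 0.18, adjusted p = 0.012). Of 15 other transmitter genes, 3 rose, which were Ache, Slc17a6 and Slc18a3. Ache, the enzyme that breaks down acetylcholine, changed by 0.47 ± 0.13 (adjusted p = 0.0266). Slc17a6, a vesicular glutamate transporter, changed by 1.04 ± 0.31 (adjusted p = 0.0302), and Slc18a3, the vesicular acetylcholine transporter, by 0.74 ± 0.25 (adjusted p = 0.0489). Of 25 transmitter and peptide receptors, 5 rose and 0 fell, with a median of 0.32. Htr4, a serotonin receptor, changed by 0.48 ± 0.11 (adjusted p = 0.0079), Oprk1, the kappa opioid receptor, by 1.17 ± 0.28 (adjusted p = 0.0121) and Gucy1a1, a subunit of the nitric oxide receptor, by 0.62 ± 0.16 (adjusted p = 0.0197).

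Of 16 other glial genes, 6 rose and 1 fell. Lgi4, secreted by glia, rose by 0.64 ± 0.15 (SE, adjusted p = 0.00948) on the log2 scale, and Ednrb, the endothelin receptor, fell by 0.47 on the log2 scale (adjusted p = 0.0118). Of 8 neurotrophic ligands and of 6 myelin and Schwann cell markers none passed, with medians of -0.02 and -0.21. Of 3 interstitial cell of Cajal markers 1 rose, Etv1 (0.50 ± 0.15, adjusted p = 0.0339). The 12 enteroendocrine markers were mixed, with 3 higher and 1 lower. Among them Chga, a granin (0.51 ± 0.10, adjusted p = 0.00296), and Fev, a serotonergic transcription factor (0.80 ± 0.19, adjusted p = 0.00972) rose and Gcg, the glucagon precursor, fell by 0.59 (adjusted p = 0.0237). Their summed CPM was 317 to 325 in WT water, 476 to 489 in LAO1KO water and 314 to 486 in DKO water, and 358 to 395, 280 to 473 and 494 to 531 under DSS, with 0 of 12 at 0 in any library. The part of enteroendocrine cells in the members' difference was not tested. Of 8 fibroblast markers 1 fell, Pdgfra (-0.52 ± 0.16, adjusted p = 0.0415), and of 6 adipocyte and 8 immune markers none passed.

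The members had a median exonic length of 3051 bases, against 3979 for the 17193 tested genes with a known length. The 11 members longer than that median had a median log2 fold change of 0.50, with 6 called, where all longer genes had -0.02. The 18 others had 0.71, with 12 called, where all shorter genes had 0.06. In WT the longer members had 0.57 with 0 called and the shorter 0.98 with 6 called, where all genes had -0.08 and 0.12. The share of all genes called in each length class was not computed, so these counts show no effect of length.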

How the data were processed

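Total RNA from colon was sequenced from stranded mRNA libraries, per the labels' protocols. Tools in the submitters' processing notes are HISAT2 2.1.0, StringTie 2.1.3b, Trimmomatic 0.38, FastQC 0.11.7 and DESeq2 1.42.1 in R 4.3.2, and the build is GRCm38 (mm10). The authors deposited raw read counts per gene symbol for 18 libraries, whole numbers not normalised. How reads that map to several genes were counted, and whether strand was used, is not given in the sources used here.

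Counts were tested with edgeR 4.0.16 (quasi-likelihood test, TMM factors, robust dispersion, default count filter, 18848 genes) in R 4.3.3, with 1 mean per group and Benjamini-Hochberg adjustment over all genes tested at a threshold of 0.05. Alternatives were upper-quartile factors, no count filter, at least 1 CPM in 3 libraries, leaving out the 13 mitochondrial mRNAs, a replicate block, the compared groups alone, limma 3.58.1 (voom with library weights), DESeq2 1.42.0 and leaving out each library. The procedure was tested on simulated counts in which genes varied independently and shared 1 spread. That test cannot show how the calls behave for genes that move together, as the members did. The labels call the libraries biological replicates, and p-values cover the spread between them.

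The members and the other gene lists were chosen with earlier results of these data known. All 30 members are named, with values per library for those that passed in any comparison, and from each other list up to 3 genes with the smallest p among those that passed on average in DSS. 1 gene that this rule selects is not reported here.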

Additional observations from a re-analysis of the deposited data

How the results depend on the processing

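The averaged DSS difference kept its direction for every called member in every alternative run. The count of 18 members was 13 with no count filter and 17 to 23 under the other settings that use all libraries. It was 8 to 22 with 1 library left out, where 8 came without LAO1KO DSS B or without DKO DSS B. Over all genes the averaged count of 2996 became 2446 with no count filter and 2991 to 6224 under those other settings. It ran from 1928 to 3551 with 1 library left out. The count of members in WT was less stable. From 6 it became 2 with no count filter, 12 with only the groups compared and 16 with DESeq2, and it ran from 0 to 8 with 1 library left out. Over all genes the WT count of 2428 became 1986, 1083 and 3468 under those 3 settings, and 777 to 2702 with 1 library left out. With voom and library weights, counts of 0 became 3 for DSS in LAO1KO, 1 for DSS in DKO, 1 for DKO against LAO1KO on average, 1 for LAO1KO against WT under water, 1 for the same under DSS and 1 for the interaction of DSS with LAO1KO. Over all genes voom raised the counts of those 6 comparisons as well, in the same order from 37 to 5029, 3 to 442, 45 to 354, 10 to 934, 16 to 987 and 0 to 2354. With DESeq2 the count for LAO1KO against WT under water became 1, and that of all genes 298. The cause of these changes was not tested. In the other 11 comparisons the count stayed at 0 whichever library was left out. With upper-quartile factors 1796 of 3040 called genes rose on average in DSS, against 1266 of 2996, and all called members rose under both.

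With the replicate letter as a block (replicate block), 23 members were called on average and 16 in WT, in place of 18 and 6. The block moved no other count of members. Over all genes 3388 were called on average and 2681 in WT, in place of 2996 and 2428. Over 45 pairs of libraries with the same letter, the correlation of deviations from group means had a median of 0.0271 and exceeded 0.1 in 13. The median was -0.0245 for pairs with different letters, and 8 of 18 libraries correlated best with a library of their own letter. These correlations are over all genes tested and cannot decide whether the letters pair the libraries. For the members, the highest library had the same letter in water and DSS, C in WT and B in LAO1KO and DKO. The lowest library had the same letter only in DKO (A).

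Depth limits Npy, with 0 to 5 counts in any library, and with 3 libraries a group the spread between libraries limits the rest.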
